A study of Saccharomyces cerevisiae with 25 samples.

Results

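The first 45 min after yeast cells lost external phosphate were followed in 4 sequencing libraries of Saccharomyces cerevisiae. They were the libraries at 15, 30 and 45 min without phosphate and the 0 min library taken in high phosphate, chosen by their time labels from 25 libraries in all. The strain background was BY4741, a haploid laboratory strain. Its genotype is labelled pho84pr-YFP, delta-phm3, which the 0 min control shares: YFP, a yellow fluorescent reporter, driven by the PHO84 promoter, and a deletion of PHM3, now called VTC4. Cells from high phosphate medium were washed and placed in medium without phosphate, then frozen every 15 min up to 360 min, and total RNA was sequenced on an Illumina HiSeq. Each time had 1 library. The labels do not say that times came from separate cultures, so all p-values below reflect only how much these libraries spread. Washing, the change of medium, elapsed time and phosphate loss cannot be told apart, since no library was washed and returned to high phosphate.

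Budding yeast senses phosphate through the PHO pathway. When phosphate is plentiful, the cyclin-kinase pair Pho80-Pho85 phosphorylates the transcription factor Pho4 and keeps it out of the nucleus. When phosphate is scarce, the inhibitor Pho81 blocks the kinase and Pho4 switches on genes for uptake, scavenging and storage of phosphate. Handling and many kinds of starvation also move broad programmes in yeast: stress genes driven by Msn2 and Msn4 go up, and genes that build ribosomes go down.

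VTC4 encodes the catalytic subunit of the polyphosphate polymerase in the vacuole membrane. It stood at 242, 273, 309 and 261 reads per 1000000 listed reads (RPM) at 0, 15, 30 and 45 min. These reads go against the label, and the libraries are called here the libraries labelled phm3_del. The mean difference of 15 to 45 min from 0 min was 0.21 on the log2 scale (SE 0.33, limma adjusted p = 0.697). BY4741 is of mating type a, and MFA1, a pheromone gene of a cells, stood at 794, 946, 1200 and 1390 RPM. Of 10 markers of a cells 9 were listed in all 4 libraries, and of 4 markers of alpha cells 1 was, STE3, at 21.2 to 35.4 RPM.

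The libraries held 1462566, 531963, 501479 and 875967 reads at 0, 15, 30 and 45 min, as implied by the spacing of low values. Genes under 10 reads have no value, so 4260 genes were listed in all 4 libraries and the 0 min library reached lower levels than the other libraries. Across 2205 genes listed in all 25 libraries, the correlation of log2 RPM with 0 min was 0.924 at 15 min, 0.801 at 30 min and 0.726 at 45 min. The 90 min library had a correlation of 0.971 with 0 min, closer than any of the first 3 libraries. For 300 min it was 0.702, and no other time was compared in this way. The 90 and 105 min libraries enter the spread used for the tests, and counts are given without them where they differ. Because RPM are shares of a library, the fall of abundant transcripts lifts all others. The median listed gene was 0.17, 0.30 and 0.37 (log2) above 0 min at 15, 30 and 45 min, and list medians are to be read against these values.

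Differences began within 15 min and grew in size and number. A gene was counted as having a first rise or first fall at the first time when its RPM lay at least 2-fold from that at 0 min. With 1 library per time this count carries no p-value. At 15 min 443 genes (10.4% of 4260) were at least 2-fold higher and 121 (2.84%) at least 2-fold lower. At 30 min 798 (18.7%) were higher and 419 (9.84%) lower, and at 45 min 890 (20.9%) and 475 (11.2%). First rises numbered 443 (10.4%) at 15 min, 420 (9.86%) at 30 min and 217 (5.09%) at 45 min. First falls numbered 121 (2.84%) at 15 min, 325 (7.63%) at 30 min and 101 (2.37%) at 45 min. First falls were most frequent at 30 min. The order of first rises was not stable: 15 and 30 min had 299 and 318 among genes with at least 50 reads in 1 library, 269 and 347 on log2(RPM + 10), 150 and 216 at a log2 difference of 1.5, and 157 and 219 among 3109 genes far above the listing limits at 0 min. Centring each library on its median gene turned the 15 min split to 305 higher and 221 lower, and the 45 min split to 508 and 631. Requiring a listed level must drop falling genes of low abundance. It also keeps genes that lay below the later limits at 0 min only if they were higher later. Among 3109 genes at least 2-fold above all listing limits at 0 min, with unlisted values placed at the limit, 157 were higher and 154 lower at 15 min, against 426 and 520 at 45 min.

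**Figure D1:**
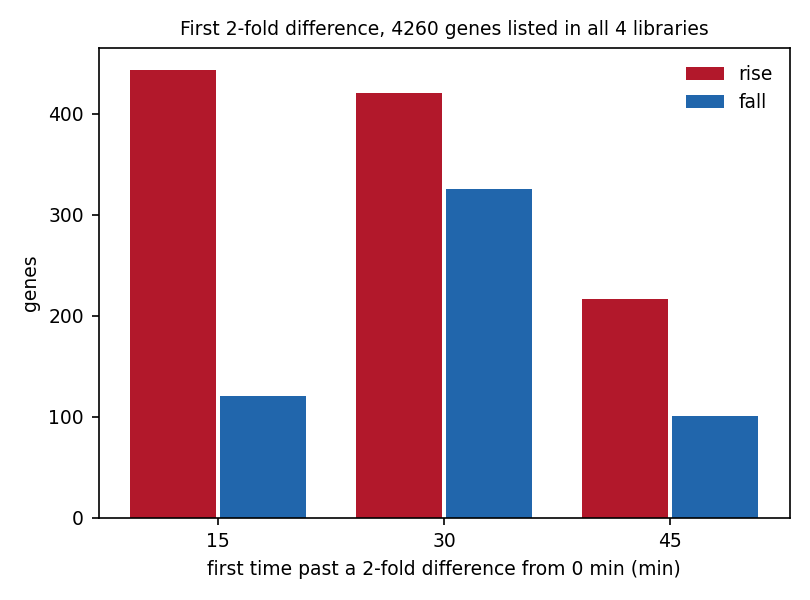
Number of genes by the first time (min, x axis) at which they stood at least 2-fold above (rise, red) or below (fall, blue) the 0 min library, among 4260 genes listed in all 4 libraries, 1 library per time. Rises number 443, 420 and 217 and falls 121, 325 and 101 at 15, 30 and 45 min. The order of the rises at 15 and 30 min turns under other settings given in the text.

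For a test, the mean of the 3 early libraries was compared with 0 min in limma across all 25 libraries. The lone 0 min library was assumed to vary like the others, and 352 of 4537 tested genes were listed in 2 of the 3 early libraries and fitted on those. A gene whose 0 min level lay below the listing limits at 15 and 30 min could be tested only if it was higher there. HSP42, CTT1, AIM17, ARO9 and NDT80 are among such genes, so their rises are in part a condition of being tested. At an adjusted p under 0.05, 383 genes (8.44%) rose and 90 (1.98%) fell. Centred on the median gene, 179 rose and 196 fell, and without the 90 and 105 min libraries 603 rose and 185 fell. The 3 libraries weigh unequally: 622 rose and 358 fell without 15 min, 150 and 8 without 30 min, and 116 and 8 without 45 min. With only the 4 libraries in the fit, 31 rose and 5 fell. In what follows, "rose" and "fell" refer to this test.

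All 17 tested genes of the PHO regulon list rose, and 16 of them had their first rise at 15 min. VTC4, also a gene of this regulon, is not in the list because the strain is labelled as lacking it, and it did not pass. The median log2 difference of the 17 genes was 1.78 at 15 min, 2.52 at 30 min and 2.74 at 45 min. Over all genes 8.44% rose. At 15 min the regulon had reached 74.3% of its 45 min difference, beside 50.1% over all genes. Such shares are medians over genes at least 2-fold from 0 min at 45 min. Some other lists had shares as high, such as sulfur assimilation (77.2%, 12 such genes) and the respiratory chain (77.5%, 8 such genes). Others were lower, such as general stress at 51.7%. A high share at 15 min was therefore not particular to the PHO regulon. CTF19 was not listed, and GIT1, the glycerophosphoinositol transporter, and PHM7 were listed only at 45 min, at 37.7 and 26.3 RPM. After centring on the median gene 14 of 17 rose, and with only the 4 libraries 5 did. With unlisted values placed at the listing limit 16 of 19 rose. VTC3, PHO84 and SPL2 had the smallest adjusted p.

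Among uptake genes, SPL2, which encodes a regulator of low-affinity phosphate transport, stood at 44.4, 508, 726 and 744 RPM at 0, 15, 30 and 45 min. It was 3.51 above 0 min (log2) at 15 min and 4.07 at 45 min. Its mean difference, 3.87 (SE 0.33, limma adjusted p = 1.84e-08), was the largest rise of any gene tested. PHO84, the high-affinity phosphate transporter, stood at 111, 682, 844 and 945 RPM. It rose by 2.88 (SE 0.30, limma adjusted p = 7.55e-07), and its 15 min value already exceeded 0 min by 2.62. PHO84 overlaps an annotated noncoding RNA, and whether counting used strand is not given in the sources used here. PHO89, the sodium-phosphate cotransporter, was slower, at 58.8, 156, 293 and 394 RPM (2.16, SE 0.48, limma adjusted p = 0.00863). PHO86, needed for Pho84 to leave the endoplasmic reticulum, stood at 144, 406, 497 and 461 RPM and rose by 1.65.

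Phosphatase genes kept climbing after 15 min. PHO5, a secreted acid phosphatase, stood at 327, 883, 2060 and 2690 RPM and rose by 2.37 (SE 0.48, limma adjusted p = 0.00505). PHO11 went from 158 through 716 and 2260 to 2850 RPM, and PHO12 from 263 through 1550 and 3750 to 4200 RPM. Both encode secreted acid phosphatases, and their mean differences were 3.40 and 3.46. PHO5, PHO11 and PHO12 held whole read numbers in 0, 1 and 1 of the 4 libraries, so reads may be divided among these similar genes and they are not 3 independent measurements. PHO8, the vacuolar alkaline phosphatase, stood at 30.1, 113, 156 and 191 RPM. The median of the 4 phosphatases was 2.04, 3.24 and 3.52 at 15, 30 and 45 min, against 2.06, 2.62 and 2.92 for the 4 uptake genes; this difference between roles was not tested.

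Of the genes for polyphosphate, the 4 in the list rose, while VTC4 did not pass (0.21, limma adjusted p = 0.697). VTC3 and VTC1, subunits of the polyphosphate complex, stood at 211, 1240, 1590 and 1480 RPM and at 451, 1600, 2580 and 2910 RPM. VTC3 rose by 2.75 (SE 0.30, limma adjusted p = 8.71e-07) and VTC1 by 2.35 (SE 0.30, limma adjusted p = 1.95e-05). VTC2 rose by 1.42, and PPN1, a polyphosphatase, by 1.08 as the smallest of the regulon. PPN1 passed 2-fold first at 30 min, with a log2 difference of 0.99 at 15 min. Of the scavenging genes, PHM8, a phosphatase that acts on nucleotides, rose by 2.40 and GDE1, a glycerophosphocholine phosphodiesterase, by 1.91. HOR2, a glycerol phosphatase, stood at 85.5, 175, 333 and 518 RPM, climbing at each step. PHO81, the kinase inhibitor, stood at 66.3, 227, 162 and 245 RPM and rose by 1.65 (SE 0.29, limma adjusted p = 0.00171). It was the one regulon member below its 15 min value at 30 min.

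**Figure D2:**
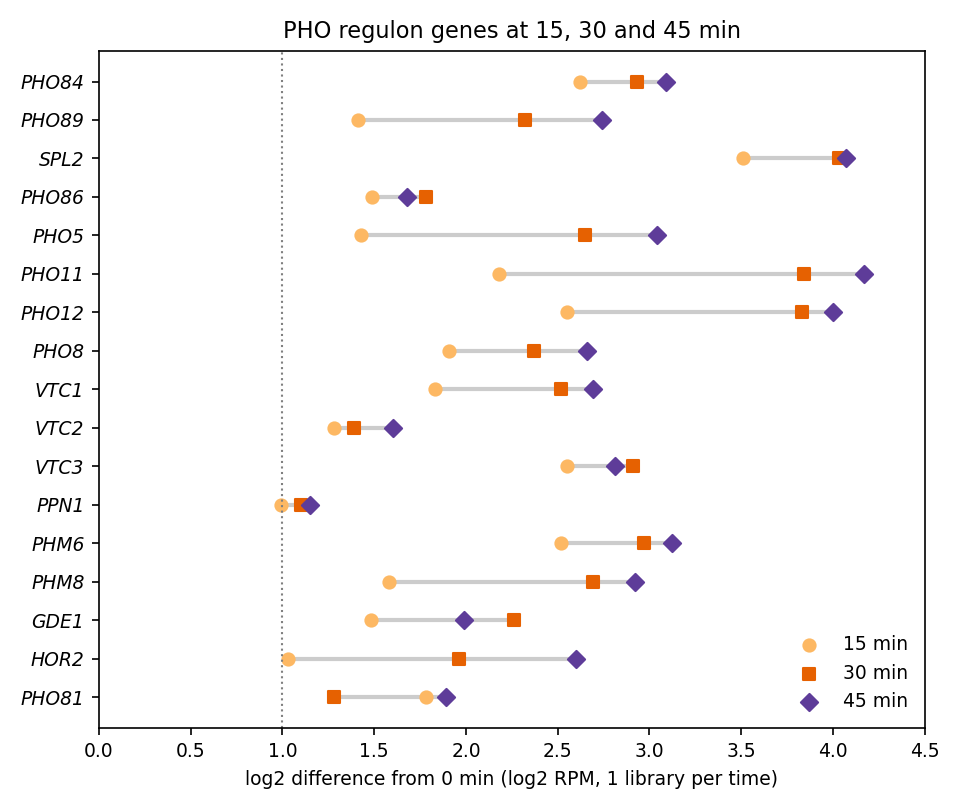
Log2 difference in RPM from 0 min (x axis) of the 17 PHO regulon genes listed in all 4 libraries, at 15 min (circles), 30 min (squares) and 45 min (diamonds), 1 library per time; the dotted line marks a 2-fold difference. SPL2 lies at 3.51 at 15 min and 4.07 at 45 min, while PHO5 moves from 1.43 to 3.04.

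The signalling genes upstream moved less. PHO4, PHO80 and PHO85 did not pass the test, with mean differences of 0.27, -0.09 and 0.14. Of 13 tested signalling genes 4 rose and none fell: PLC1, phospholipase C (1.84), DDP1, a polyphosphate and inositol pyrophosphate phosphatase (1.83), IPK1, an inositol phosphate kinase (1.80), and VIP1, an inositol pyrophosphate kinase (1.22). The share of all tested genes that rose was 8.44%. Centred on the median gene, 2 rose and 1 fell. Without 15 min 6 rose and 1 fell, without 30 min 2 rose, without 45 min 1 rose and with only the 4 libraries 0 did. PHO90, a low-affinity phosphate transporter, stood at 120, 77.1, 39.9 and 32.0 RPM. It lay lower at each time, but its difference of -1.37 (SE 0.53) had a limma adjusted p of 0.0859. PHO87, another such transporter, stood at 33.5, 41.4, 31.9 and 34.2 RPM and did not pass. PHO2 was not tested and PHO92 (YDR374C) was not listed.

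The sequences upstream of several early genes are shown because they hold letters known to be bound by regulators of the lists described here. Genes without such a match in the window were passed over. Stretches are from the RefSeq R64 genome, written 5′ to 3′ on the gene's strand, with the motif and 20 bases on each side, and capitals mark the motif. The window searched was the 300 bases before the start codon, on both strands. The Pho4 motif CACGTG occurred in 8 of the 17 PHO regulon windows (47.1%) and in 3.57% of all 6001 windows. By first rise at 15, 30 and 45 min its share was 7.87%, 4.14% and 6.48%, with no steady order. SPL2 held 3 copies, of which the pair farther from the start is shown, and PHO84 held none in this window, which says only that these letters are not there.
SPL2, chrVIII:375165-375267, minus strand: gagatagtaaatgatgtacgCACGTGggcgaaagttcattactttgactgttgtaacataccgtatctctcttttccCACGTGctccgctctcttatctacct
PHM6, chrIV:1022575-1022620, minus strand: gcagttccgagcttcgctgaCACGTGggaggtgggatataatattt
VTC1, chrV:302629-302674, plus strand: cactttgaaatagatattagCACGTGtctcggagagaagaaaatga

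PHM6, a regulon gene of unknown function, stood at 133, 765, 1040 and 1160 RPM and rose by 2.87 (SE 0.45, limma adjusted p = 0.000349). All 3 genes whose Pho4 motifs are shown had their first rise at 15 min.

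Most general stress genes, which Msn2 and Msn4 control, rose as well. Of 55 tested members 45 rose and none fell, with 8.44% of all tested genes rising, and 41 of the 53 listed in all 4 libraries had their first rise at 15 min. The median difference was 1.38, 2.32 and 2.64 at 15, 30 and 45 min. At 15 min the list had reached 51.7% of its 45 min difference, near the 50.1% over all genes. With unlisted values placed at the listing limit 22 of 58 rose, beside 165 of all 5576 genes. Centred on the median gene 27 of 55 rose. The count fell to 18 without 30 min, to 12 without 45 min and to 8 with only the 4 libraries.

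Members differed in their course. HSP42, a small heat shock protein that gathers misfolded proteins, stood at 17.8, 211, 259 and 236 RPM. It was at its later level by 15 min and rose by 3.72 (SE 0.70, limma adjusted p = 0.00287). TMA10, a ribosome-associated protein, stood at 20.5, 194, 371 and 267 RPM and rose by 3.71. HXK1, a hexokinase, went instead from 73.8 through 397 and 1450 to 1980 RPM, still climbing at 45 min (3.82, SE 0.90, limma adjusted p = 0.0117). YFR052C-A had nearly the same values, 72.5, 397, 1440 and 1950 RPM, and is not known to be independent of HXK1. PGM2, a phosphoglucomutase, stood at 27.3, 105, 313 and 547 RPM, and HSP12, a membrane-protecting stress protein, at 654, 1560, 4580 and 7780 RPM. Both rose, by 3.26 and 2.55. CTT1, the cytosolic catalase, had its first rise only at 30 min, with 14.4, 26.3, 81.8 and 119 RPM, and rose by 2.14 (SE 0.68, limma adjusted p = 0.0443). This call was lost in 7 of 16 alternatives, with adjusted p from 0.00595 to 0.153. TPS1, which makes trehalose phosphate, likewise passed 2-fold at 30 min, at 75.9, 143, 379 and 379 RPM.

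The stress response element CCCCT is the letters that Msn2 and Msn4 bind. On either strand it stood in 79.2% of the stress list's windows against 22.2% of all windows. Among genes by first rise its share was 44.0% at 15 min, 38.2% at 30 min and 27.8% at 45 min. The stretches shown are from HSP42 and from RTC3, a gene of unclear function that is not in the stress list. RTC3 stood at 34.9, 188, 536 and 559 RPM and rose by 3.46 (SE 0.84, limma adjusted p = 0.0130). HSP42 holds the element on the other strand, read as AGGGG.
HSP42, chrIV:806389-806463, plus strand: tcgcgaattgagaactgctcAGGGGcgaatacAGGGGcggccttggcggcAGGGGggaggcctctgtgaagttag
RTC3, chrVIII:280600-280644, plus strand: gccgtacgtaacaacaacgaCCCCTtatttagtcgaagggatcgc

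Chaperones driven by the heat shock factor Hsf1 changed in part. Of 20 tested members 4 rose and none fell, beside 8.44% of all tested genes rising. The median was 0.56, 1.10 and 0.91 at 15, 30 and 45 min. BTN2, which sorts misfolded proteins, stood at 27.3, 325, 132 and 85.6 RPM. It was highest at 15 min, where its difference of 3.57 (95% counting interval 3.07 to 4.11) lay above that at 45 min, 1.65 (1.07 to 2.24). These intervals cover counting error of the 2 libraries only. HSP104, a disaggregase, and HSP82, the Hsp90 chaperone, were highest at 30 min, at 174, 508, 1330 and 1060 RPM and at 278, 791, 1470 and 1340 RPM. They rose by 2.36 and 2.06. HSP82 values were fractions of reads in all 4 libraries, as shared reads would give. Without 30 min 1 member of the list rose and without 45 min 2 did. Centred on the median gene 3 rose, and with only the 4 libraries 0 did.

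Genes for making ribosomes were lower from the first library and changed little after 30 min as a group. The 112 ribosome biogenesis genes listed in all 4 libraries had a median of -0.86 at 15 min, -1.97 at 30 min and -2.14 at 45 min. Over the 104 that were at least 2-fold from 0 min at 45 min, the median share of that difference reached at 30 min was 98.1%. Over all such genes it was 83.5%. Of the 112 genes, 111 were lower at 30 min than at 15 min. From 30 to 45 min 56 went up and 56 down. First falls numbered 42 at 15 min, 64 at 30 min and 1 at 45 min. In the test 36 of 122 fell and none rose, against 1.98% of all genes falling. This count was 68 when centred, 64 without the 90 and 105 min libraries, 102 without 15 min, 1 without 30 min or without 45 min, and 3 with only the 4 libraries. Of 130 names, 8 were not tested. With unlisted values placed at the listing limit all 130 were tested and 2 fell, beside 8 of all 5576 genes.

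YTM1, a factor for the large subunit, stood at 188, 39.5, 23.9 and 28.5 RPM, which at 15 to 45 min rests on 21, 12 and 25 reads. It fell by 2.65 on the log2 scale (SE 0.63, limma adjusted p = 0.0125). RSA4, which acts in release of the large subunit from the nucleolus, stood at 206, 52.6, 39.9 and 32.0 RPM and fell by 2.35 (SE 0.51, limma adjusted p = 0.00769). Most of the change of both was present at 15 min. DBP2, an RNA helicase, had the largest fall, at 694, 212, 89.7 and 50.2 RPM (-2.82, SE 0.78, limma adjusted p = 0.0249), and it went on falling to 45 min. Other large falls were those of NSR1 (-2.44), SDA1 (-2.43), PWP2 (-2.45), DRS1 (-2.47) and MTR4 (-2.36), which act in rRNA processing and subunit assembly or export. MAK21, another large-subunit factor, stood at 267, 164, 25.9 and 42.2 RPM, so that most of its drop lay between 15 and 30 min. Its difference of -2.24 (SE 0.74) did not pass, with a limma adjusted p of 0.0509. The same delayed course was seen for DBP3, an RNA helicase, at 148, 103, 19.9 and 12.6 RPM.

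Subunits of RNA polymerases I and III, which transcribe ribosomal and transfer RNA, had medians of -0.68, -1.77 and -1.35. Of 24 tested, 6 fell, beside 1.98% of all tested genes. With unlisted values placed at the listing limit 1 of 24 fell. RPA135, the second largest subunit of RNA polymerase I, stood at 278, 118, 33.9 and 27.4 RPM (-2.54, SE 0.80, limma adjusted p = 0.0430). RPA43 stood at 204, 77.1, 25.9 and 35.4 RPM and fell by 2.30 on the log2 scale. When centred 11 of the 24 fell, without 15 min 17, without 30 min or without 45 min 1, and with only the 4 libraries 0. RPA49 stood at 195, 103, 19.9 and 30.8 RPM and did not pass (limma adjusted p = 0.0508).

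Biogenesis genes carry a known pair of upstream elements, named PAC and RRPE. PAC was searched as GATGAG and RRPE as AAAAATTT, on both strands. They occurred in 91.1% and 81.2% of the biogenesis windows and in 19.1% and 15.1% of all windows. By first fall, PAC stood in 66.9% of windows at 15 min, 47.2% at 30 min and 33.0% at 45 min, and RRPE in 58.7%, 47.8% and 27.0%. The stretches shown are of YTM1 and RSA4, with a first fall at 15 min, and of MAK21 and RPA49, with a first fall at 30 min. MAK21 and RPA49 were already lower at 15 min, by less than 2-fold, so their later class rests on that mark. All 4 hold both elements, and capitals run together where sites touch or overlap.
YTM1, chrXV:832623-832737, plus strand: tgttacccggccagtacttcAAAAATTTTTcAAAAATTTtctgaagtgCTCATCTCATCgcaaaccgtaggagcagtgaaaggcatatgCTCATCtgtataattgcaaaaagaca
RSA4, chrIII:242419-242498, minus strand: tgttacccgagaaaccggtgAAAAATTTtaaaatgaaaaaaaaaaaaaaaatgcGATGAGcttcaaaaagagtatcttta
MAK21, chrIV:570455-570519, plus strand: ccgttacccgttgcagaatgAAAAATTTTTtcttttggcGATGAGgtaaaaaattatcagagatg
RPA49, chrXIV:182713-182772, minus strand: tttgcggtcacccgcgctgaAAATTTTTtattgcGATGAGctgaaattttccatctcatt

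**Figure D3:**
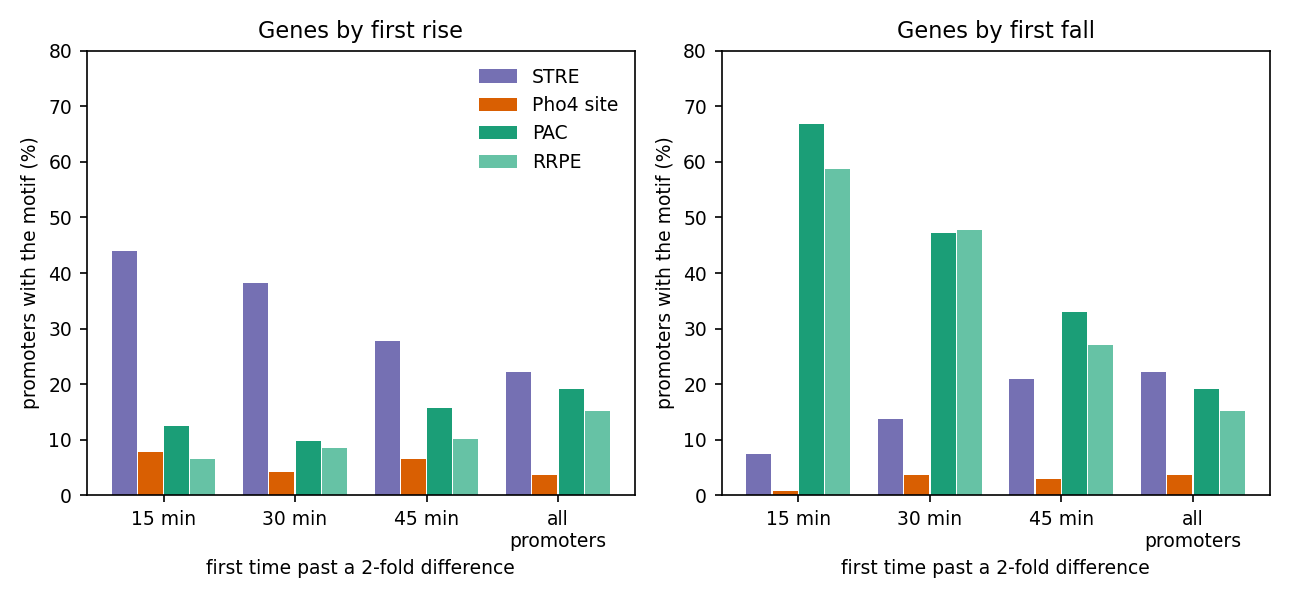
Share of promoter windows (300 bases before the start codon, %, y axis) that hold each motif on either strand, for genes grouped by the time of first rise (left) or first fall (right), beside all promoters. PAC and RRPE are most frequent among genes with a first fall at 15 min, 66.9% and 58.7%, and the stress element (STRE) among genes with a first rise at 15 min, 44.0%.

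Ribosomal protein genes lay nearer to their 0 min level at 15 min than the biogenesis genes did and were lower at each later time. Their median was -0.39 at 15 min, -1.14 at 30 min and -1.92 at 45 min (137 genes). Over the 131 that were at least 2-fold from 0 min at 45 min, only 21.1% of that difference was in place at 15 min. The share was 42.1% for ribosome biogenesis and 50.1% over all genes. Of the 137 genes, 136 were lower at 30 min than at 15 min and 135 lower at 45 min than at 30 min. First falls numbered 2 at 15 min, 95 at 30 min and 34 at 45 min. In the test of the mean 3 of 137 fell and none rose, a share near the 1.98% of all tested genes that fell. With unlisted values placed at the listing limit 0 of 138 fell. Without 15 min 81 fell, and without the 90 and 105 min libraries 35 did, but without 30 min, without 45 min or with only the 4 libraries 0 did. Whole read numbers in all 4 libraries were found for 23 of the 137, so reads may be divided between paralogs and the genes are not independent.

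RPS24B stood at 1020, 645, 223 and 111 RPM. RPL26A stood at 2710, 1630, 692 and 398 RPM and RPL32 at 2880, 2390, 1500 and 775 RPM. All 3 dropped at each step, although RPL26A (-1.82, limma adjusted p = 0.0556), RPS24B (-2.02, limma adjusted p = 0.0665) and RPL32 (-1.03, limma adjusted p = 0.19) did not pass. Translation factors lay lower by less, with medians of -0.27, -0.50 and -0.84. Of 35 tested, 1 fell, a share near the 1.98% of all genes, TIF4631, an eIF4G scaffold, at 115, 65.8, 35.9 and 22.8 RPM (-1.60, SE 0.45, limma adjusted p = 0.0281).

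**Figure D4:**
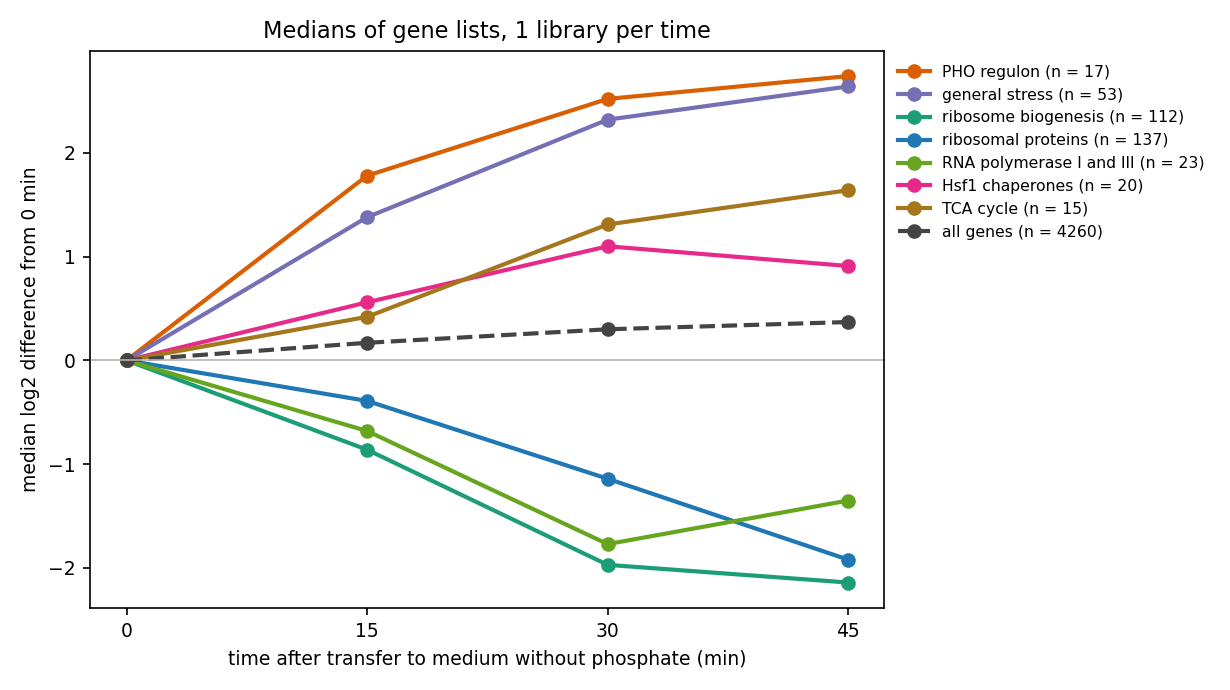
Median log2 difference in RPM from 0 min (y axis) over the listed genes of 7 lists and of all 4260 genes, against time after transfer to medium without phosphate (min, x axis), 1 library per time. The PHO regulon is highest at 15 min at 1.78, ribosome biogenesis is lowest at -0.86, and ribosomal proteins reach -1.92 only at 45 min.

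The steps between libraries show the same order gene by gene. From 15 to 30 min the median step was 0.52 for the PHO regulon, -1.07 for ribosome biogenesis and -0.75 for ribosomal proteins, beside 0.09 for all genes. From 30 to 45 min these steps were 0.17, -0.00 and -0.76, beside 0.06. No gene passed the limma test of a slope across 15, 30 and 45 min, and 491 had an unadjusted p under 0.05. Without the 90 and 105 min libraries, 16 genes had a rising and 12 a falling slope. The largest slopes per 15 min were those of TSA2, a peroxiredoxin, at 1.32 (limma adjusted p = 0.21), and DBP3 at -1.52 (limma adjusted p = 0.303).

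**Figure D5:**
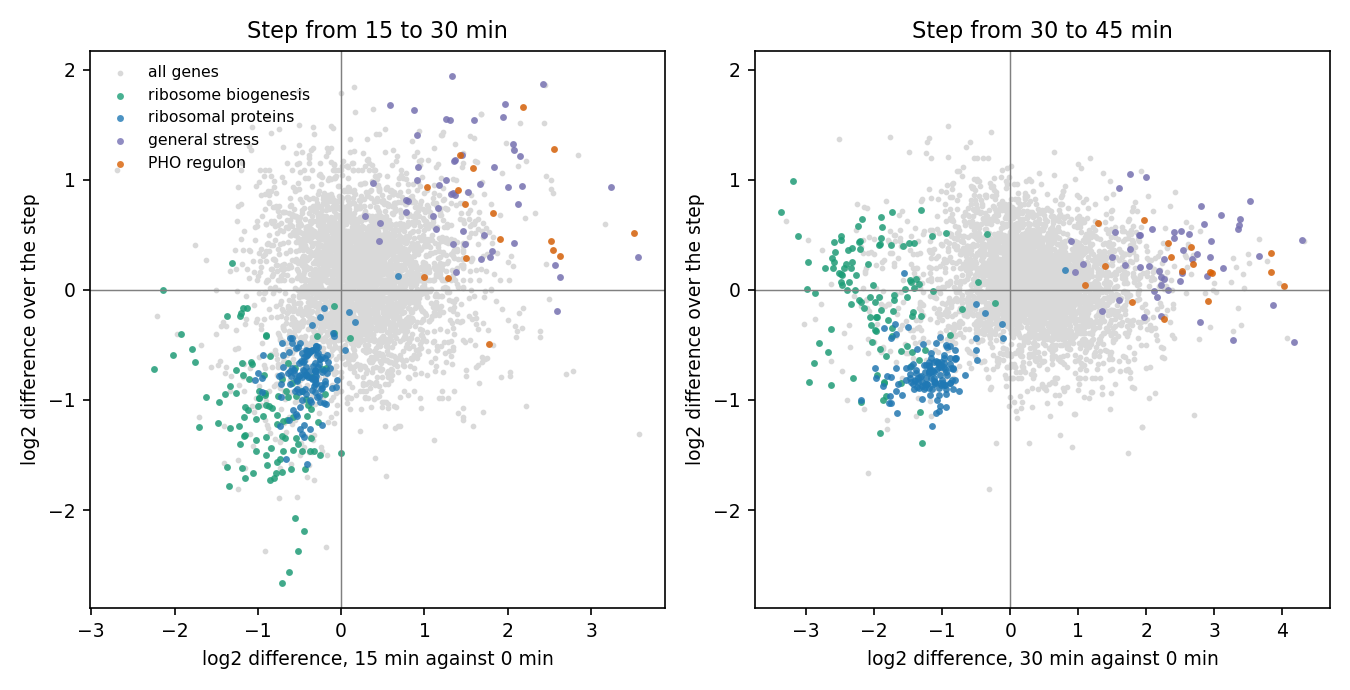
Change in log2 RPM over a step between libraries (y axis) against the log2 difference from 0 min at the start of the step (x axis), for the step from 15 to 30 min (left) and from 30 to 45 min (right); each point is 1 gene listed in all 4 libraries, and colours mark 4 lists. Ribosomal protein genes step down in both panels (136 and 135 of 137 genes), and ribosome biogenesis genes only in the left one (111 of 112, then 56).

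Some genes of carbon metabolism changed, in lists whose counts stand beside 8.44% of all tested genes rising and 1.98% falling. Of 15 tested genes of the TCA cycle 4 rose and none fell, with medians of 0.42, 1.31 and 1.64, and 9 rose without the 90 and 105 min libraries but none without 45 min. With unlisted values placed at the listing limit 1 of 18 TCA cycle genes rose. CIT2, the peroxisomal citrate synthase, stood at 34.9, 115, 209 and 321 RPM and rose by 2.50 (SE 0.61, limma adjusted p = 0.0140). IDH1, an isocitrate dehydrogenase subunit, stood at 36.2, 33.8, 93.7 and 195 RPM and was at its 0 min level at 15 min; it did not pass. Among hexose transporters HXT7, a high-affinity carrier, rose by 2.72 and HXT1, the low-affinity carrier, fell by 1.41 on the log2 scale (SE 0.30, limma adjusted p = 0.00769). HXT1 stood at 231, 75.0, 90.7 and 97.4 RPM, lowest at 15 min. HXT1 and HXT7 values are mostly fractions of reads and may be shared with similar transporters. Of 16 glycolytic genes 2 rose, a share near that of all genes: ENO1 (enolase, 2.17) and TDH2 (glyceraldehyde-phosphate dehydrogenase, 1.38).

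Some genes that use other nutrients rose, and their counts stand beside 8.44% of all tested genes rising. Of 18 tested nitrogen catabolite genes 4 rose, among them GAP1, the general amino acid permease, at 56.1, 177, 289 and 307 RPM (2.16, SE 0.55, limma adjusted p = 0.0161). ARO9, an aromatic aminotransferase, stood at 10.3, 73.3, 171 and 127 RPM and rose by 3.51 (SE 0.46, limma adjusted p = 2.71e-05). Its 0 min level lay below the listing limits of the early libraries, so it could be tested only because it was higher there. ARO10, the decarboxylase of the same pathway, was not listed at 0 min and stood at 20.7, 81.8 and 76.5 RPM later. It was at least 7.40-fold higher than the 10-read listing limit of the 0 min library (6.84 RPM). Of 18 sulfur assimilation genes 4 rose, including MET16 at 43.8, 111, 122 and 178 RPM. Of 19 purine genes 4 rose, with ADE17 at 112, 479, 357 and 516 RPM, and 1 fell, IMD4, at 414, 159, 97.7 and 65.5 RPM. IMD4 contains the annotated RNA gene SNR54. Of 13 autophagy genes 3 rose, with medians of 0.77, 1.16 and 1.62. Among these were ATG17 and ATG19, at 10.9 and 13.7 RPM at 0 min. Both lay below the listing limits at 15 and 30 min, as did DAL3 of the nitrogen genes that rose (16.4 RPM). Their rises are in part a condition of being tested.

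FTR1, the iron permease, stood at 503, 258, 201 and 167 RPM and was the only gene of 12 tested in the iron regulon to fall in this fit (-1.29, SE 0.38, limma adjusted p = 0.0319). Of all tested genes 1.98% fell. FET3 of the same list narrowly missed (-1.31, SE 0.44, limma adjusted p = 0.0509), and FRE1, at -2.03 at 45 min, was not tested. At 45 min 4 of the 13 listed members were at least 2-fold lower and 0 higher, with a list median of 0.27. OPI3 of phospholipid synthesis rose by 1.53, and ZAP1, the zinc-responsive activator, by 1.60. The proteasome list had medians of 0.41, 0.80 and 0.96, and all 35 genes were higher at 30 min than at 15 min. In that list 2 of 35 rose, no larger a share than the 8.44% of all tested genes: UBI4, polyubiquitin, at 247, 682, 1510 and 1980 RPM, and RPN13.

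Cell cycle lists did not pass at any member: none of 22 G1/S, 10 histone, 16 G2/M and 19 M/G1 genes rose or fell in the limma test. Their medians at 45 min were 0.14, -0.24, 0.26 and 0.15, beside 0.37 for all genes. None of 14 genes of the unfolded protein response and none of 25 of ergosterol synthesis passed either.

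Some early differences were brief. At 15 min but not at 45 min, 72 genes (1.69% of 4260) were at least 2-fold higher and 27 (0.634%) at least 2-fold lower. FES1, an Hsp70 nucleotide exchange factor, stood at 67.0, 205, 171 and 89.0 RPM, and PHD1, a regulator of filamentous growth, at 49.2, 139, 83.8 and 62.8 RPM. Both returned toward their 0 min level, and neither passed the test of the mean. Of the brief falls, DEP1 stood at 49.2, 20.7, 31.9 and 44.5 RPM, near its 0 min level at 45 min. Its 15 min value rests on 11 reads. The counting interval of its difference at 15 min (-2.32 to -0.33) overlapped that at 45 min (-0.75 to 0.44). The return of DEP1 is therefore not clearly set apart from counting error.

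The first 45 min differed from the last 8 libraries, 255 to 360 min, in a direct limma contrast that does not use 0 min. Of 4537 genes, 332 (7.32%) were higher early and 807 (17.8%) lower. Centred on the median gene these counts were 505 and 306. Ribosomal protein genes were higher early in 133 of 137 cases, with a median of 1.76. Ribosome biogenesis genes were lower early in 34 of 122 cases and higher in none (12 and 1 when centred, 9 lower without 30 min). Of the PHO regulon, 8 of 17 genes were lower early, and 3 when centred. PHO84 was lower early by 0.97 and PHO5 by 2.03. SPL2 (-0.02, SE 0.20, limma adjusted p = 0.961) and VTC3 (-0.30, SE 0.17, limma adjusted p = 0.219) did not pass. Without centring, respiratory chain genes were lower early in 20 of 32 cases and M/G1 genes in 12 of 19. These lists were not counted after centring. TMA10 was the 1 stress gene higher early, by 2.09 (SE 0.45, limma adjusted p = 0.00112). Of 55 stress genes 18 were lower early, and 12 when centred. BTN2 was higher early by 1.99 (SE 0.33, limma adjusted p = 7.47e-05).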

How the data were processed

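The authors deposited 1 table of log2 RPM (reads per 1000000 listed reads) per gene and library. That unit follows from the values, whose antilogs sum to 1000000, although the series text speaks of normalization to the first time point. Alignment used Bowtie and the R64 genome, per the submitters' processing notes. Versions, annotation, counting and strand setting were not given in the sources used here. In each library the lowest value was taken as 10 reads, which makes 94.1% to 94.8% of the values of the 4 libraries whole within 0.02 reads. Of 6701 rows, 51 without a name and 2 sharing a name were left out. Of 6648 names, 5962 matched R64.

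A linear model of log2 RPM was made in limma 3.58.1 (R 4.3.3) from 25 libraries with 5 levels: 0 min, 15 to 45, 60 to 120, 135 to 240 and 255 to 360 min. Genes needed values in 2 of 3, 4 of 5 and 6 of 8 libraries of these windows and at 0 min. Benjamini-Hochberg adjustment covered all tested genes, with a threshold of 0.05. Real change within a window widens the spread. No pseudocount was added. The fit was run on simulated data with 200 changed genes. Those libraries were independent and, besides counting error, were given less spread than the median residual spread of the data. That run therefore cannot give error rates for these data. Single libraries were compared by a log2 difference of 1, with exact 95% binomial intervals that cover counting error only. Alternatives changed the centring, gene filter, pseudocount, fold and libraries. The window times and the 37 gene lists were chosen with earlier results of these data known. Genes were named by rule: VTC4, PHO genes, the 10 largest differences each way in each limma comparison, the 5 largest per class of first time or brief change, the 5 highest listed only after 0 min, and the 3 largest of each other list. Motif and figure steps used Python 3.11.15. The values of 1 gene that the rule selects are not reported here.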

Additional observations from a re-analysis of the deposited data

Results flagged for a closer look

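The following genes differed most between the first 45 min and the last 8 libraries, 255 to 360 min, by a limma test of that difference adjusted over all 4537 genes. Those with the higher level in the first 45 min were SAM2 (2.81), RPL41B (2.50), ASC1 (2.40), RPL9A (2.38), RPL8A (2.32), RPL24A (2.32), CWP1 (2.25), RPS20 (2.25), MET6 (2.20) and RPS0B (2.19), each a log2 difference of 15 to 45 min minus 255 to 360 min. SAM2, an S-adenosylmethionine synthetase, stood at 174, 455, 522 and 457 RPM at 0, 15, 30 and 45 min, and late libraries were 1.35 below 0 min (log2 difference -1.35, SE 0.51, limma adjusted p = 0.0411). CWP1, a cell wall mannoprotein, was likewise higher than 0 min at each early time, at 153, 305, 335 and 345 RPM, and below it late (-1.15, SE 0.37, limma adjusted p = 0.0184). The early rises of SAM2 and CWP1 over 0 min did not pass the limma test (adjusted p = 0.0786 and 0.0745). Values of most of the ribosomal protein genes named here are fractions of reads, and ASC1 contains the annotated RNA gene SNR24.

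Genes with the lower level in the first 45 min were HSP26 (-3.73), HPF1 (-3.63), YMR175W-A (-3.42), SIP18 (-3.30), GRE1 (-3.25), YHR033W (-3.18), YCL048W-A (-3.14), FMP16 (-2.96), PAI3 (-2.62) and GSC2 (-2.62), on the same scale. HSP26, a small heat shock protein, stood at 101, 222, 325 and 380 RPM and was 5.32 above 0 min late (SE 0.53, limma adjusted p = 6.22e-08). GSC2, a glucan synthase subunit, stood at 21.2, 20.7, 19.9 and 22.8 RPM, so that its later change was not visible by 45 min. YMR175W-A and SIP18 have nearly the same values and are not known to be independent.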

How the results depend on the processing

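No paired analysis was possible because each time point has 1 library and the labels give no replicate numbers. Leaving out 15, 30 or 45 min in turn gave 116 to 622 genes higher and 8 to 358 lower than 0 min, no slopes, and 241 to 269 higher and 529 to 678 lower than at 255 to 360 min. Leaving out each of 60 to 120 min gave 358 to 481 and 78 to 184, 0 to 1 rising slopes (1 without 105 min), and 330 to 346 and 812 to 856. Against 0 min, other settings gave higher and lower counts of 179 and 196 (centred on the tested genes), 261 and 189 (centred on genes listed in all 25 libraries), 603 and 185 (without 90 and 105 min, with 16 rising and 12 falling slopes), 513 and 138 (without 195 and 345 min), 274 and 52 of 2205 (genes listed in all 25 libraries), 165 and 8 of 5576 (missing values at the listing limit) and 31 and 5 (only the 4 libraries). Against 255 to 360 min they were 505 and 306, then 528 and 532, for the 2 centrings, and 455 lower for genes listed in all 25 libraries.

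For single libraries, centring on genes listed in all 4 libraries gave 221 lower (and as many first falls) at 15 min, 496 higher at 30 min, 508 higher at 45 min, 252 and 100 first rises at 30 and 45 min, and 55 brief falls. Centring on genes listed in all 25 gave 205, 478, 505, 224, 101 and 44 for the same counts. A log2 difference of 1.5 gave 150 higher and 18 lower at 15 min, 340 and 203 at 30 min, 410 higher at 45 min, 150, 216 and 114 first rises, 18 and 188 first falls at 15 and 30 min, and 18 brief rises and 1 brief fall. Adding 10 RPM gave 269 higher and 72 lower at 15 min, 47 brief rises and 4 brief falls. Requiring 50 reads in 1 library gave 26 brief rises. Among the 3109 genes far above the limits at 0 min, a setting chosen after seeing the data, 157, 362 and 426 were higher at 15, 30 and 45 min, with 157, 219 and 112 first rises and 18 brief rises.

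Some genes that did not pass changed sign. Centred on the tested genes, DSE2 was -0.02, PHO4 -0.02, PHO85 -0.15, PHO87 -0.20, SPC72 -0.15 and VTC4 -0.08. Centred on genes listed in all 25 libraries, PHO85 was -0.13, PHO87 -0.18, SPC72 -0.16 and VTC4 -0.06. Leaving out 15, 30 or 45 min in turn, the difference ran from -0.06 to 0.04 for GSC2, -0.02 to 0.17 for PHO87, -0.44 to 0.78 for SPC72, -0.39 to 1.05 for YGR031W, -0.93 to 0.58 for MTO1, -0.28 to 0.02 for RPL41B and -0.23 to 1.06 for YPR084W. Of 90 named genes that passed against 0 min, 12 passed under every alternative in which they were tested. Calls were lost for 74 with only the 4 libraries, 57 without 45 min, 49 without 30 min, 45 with missing values at the limit, 25 and 11 under the 2 centrings, 12 with 10 RPM added and 2 without 75 min. The 10 largest rises passed under all these settings except 4 of them with only the 4 libraries and 1 not tested among genes listed in all 25. Of the 10 largest falls, 3 passed without 30 min, without 45 min or with only the 4 libraries, and 2 with missing values at the limit. The cause was not tested. With 531963 and 501479 reads at 15 and 30 min, falls of genes near the listing limit could not be measured.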

Other observations

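In the 0 min library 17 genes were not listed that were listed at 15, 30 and 45 min. The highest were YKL071W (32.0, 79.8 and 66.2 RPM), YLR149C (47.0, 61.8 and 55.9 RPM), ARO10, FMP33 (39.5, 41.9 and 73.1 RPM) and URA10 (30.1, 55.8 and 63.9 RPM). Against the listing limit of 6.84 RPM at 0 min, their mean level was at least 8.08-fold, 7.98-fold, 7.40-fold, 7.23-fold and 6.95-fold higher. URA10 encodes an orotate phosphoribosyltransferase. Of other genes of pyrimidine supply, FUI1, the uridine permease, stood at 146, 58.3, 33.9 and 32.0 RPM and fell by 1.88 on the log2 scale (SE 0.57, limma adjusted p = 0.0381), while URA7, CTP synthase, at 235, 141, 45.9 and 32.0 RPM, did not pass.

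Of the remaining names of the rule, AIM17 rose by 3.66 and AQR1, a plasma membrane transporter, stood at 134, 20.7, 43.9 and 43.4 RPM, lowest at 15 min (-1.98, SE 0.47, limma adjusted p = 0.0123). First seen at 45 min were TSA2, at 32.1, 22.6, 63.8 and 140 RPM, and RER2, a dehydrodolichyl diphosphate synthase gene, at 64.3, 52.6, 51.8 and 14.8 RPM, the last on 13 reads. GPD1, glycerol phosphate dehydrogenase of the osmotic response, stood at 57.4, 201, 257 and 245 RPM and rose by 2.02. NDT80, a meiotic regulator, stood at 12.3, 32.0, 63.8 and 63.9 RPM and rose by 2.04.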
